A study of Mus musculus with 4 samples.

Results

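The genes of phenylalanine and tyrosine breakdown Qdpr, Pcbd1, Hpd, Hgd, Gstz1, Fah and Ddc, 7 in all, were examined by symbol among the 22662 gene symbols shared by 4 RNA sequencing libraries of mouse kidney. All 7 were present as 1 row per library, and 6 of the 7 passed the filter on low values, which kept 13287 genes. Mutant kidneys, 2 libraries, came from Hnf4a c/c ; Six2GFPcre embryos, in which both Hnf4a alleles are conditional. Control kidneys, 2 libraries, came from Hnf4a c/+ ; Six2GFPcre embryos, with 1 conditional allele. All embryos were at E18.5 and of mixed strain, and the tissue was whole kidney. Six2GFPcre is a Cre recombinase of nephron progenitors, so recombination is inherited by the tubule and glomerular epithelium that these cells form but not by stroma, endothelium or collecting duct. Both groups carried the Cre and at least 1 conditional allele, so the controls can lose 1 copy of Hnf4a, a nuclear receptor of the proximal tubule. The comparison asks which genes depend on Hnf4a in the nephron lineage.

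Phenylalanine is turned into tyrosine in a step that consumes tetrahydrobiopterin, and the spent cofactor is restored by 2 enzymes, encoded by Pcbd1 and Qdpr. Tyrosine then loses its amino group, and the products of Hpd, Hgd, Gstz1 and Fah carry the carbon skeleton by way of homogentisate to fumarate and acetoacetate. The liver is the main site of this route and the proximal tubule of the kidney also runs it. Ddc takes a side branch: it decarboxylates DOPA, and in the proximal tubule it makes dopamine that acts on sodium handling.

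FPKM values, which scale fragment numbers by transcript length and by library size, were deposited for each library, with between 13085 and 13183 of the joined genes at an FPKM of 1 or more. Read totals were not used here, so the absolute depth is unknown. Hnf4a was listed at 87.1 and 78.5 FPKM in the mutant libraries and at 89.3 and 84.6 FPKM in the control libraries. This value covers the whole gene and does not check the deletion. Replicate 1 of each group had Y-linked transcripts and replicate 2 of each group had Xist, so the replicate number also separates these patterns and both groups hold 1 library of each. Of the 9 proximal tubule markers all were above an FPKM of 1. Their summed level was 252 and 255 FPKM in the mutant libraries, against 524 and 448 FPKM in the control libraries. Whole-kidney RNA cannot tell fewer proximal tubule cells from less RNA per cell.

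None of the 6 tested genes passed an adjusted p under 0.05 over all genes (limma on log2(FPKM + 1)), a threshold that 0.158% of the 13287 tested genes passed. All 6 log2 differences were negative, as were 44.7% over all tested genes. All 6 were lower in both mutant libraries than in either control library, a pattern seen in 17.1% of tested genes, and 5 of the 6 had an unadjusted limma p under 0.05 in that direction, against 4.57% of tested genes. Fah and Hgd stood at 38.9% and 30.8% of the control mean, Ddc at 54.9% and Gstz1 at 74.5%, whereas the cofactor genes Qdpr and Pcbd1 stood at 84.4% and 90.8%. The median log2 difference of the 6 was -0.58, beside 0.02 over all tested genes. Erythroid markers were higher in both mutant libraries in sum: 2 of 4 were joined, and they summed to 27.7 and 29.4 FPKM in the mutant libraries and to 17.5 and 21.4 FPKM in the control libraries. Alas2, the heme synthesis enzyme of red cells, was at 26.5 and 27.6 FPKM in the mutant libraries and at 16.9 and 20.2 FPKM in the control libraries. The limma fit across all genes gave it an unadjusted p of 0.0092 and an adjusted p of 0.37. Their part in the differences of the 6 genes was not tested. With 2 libraries a group, an exact two-sided permutation test of a single gene cannot go below a p of 0.333. No gene of the 6 owed its place to the filter, since each was at 3.01 FPKM or more in every library.

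**Figure D1:**
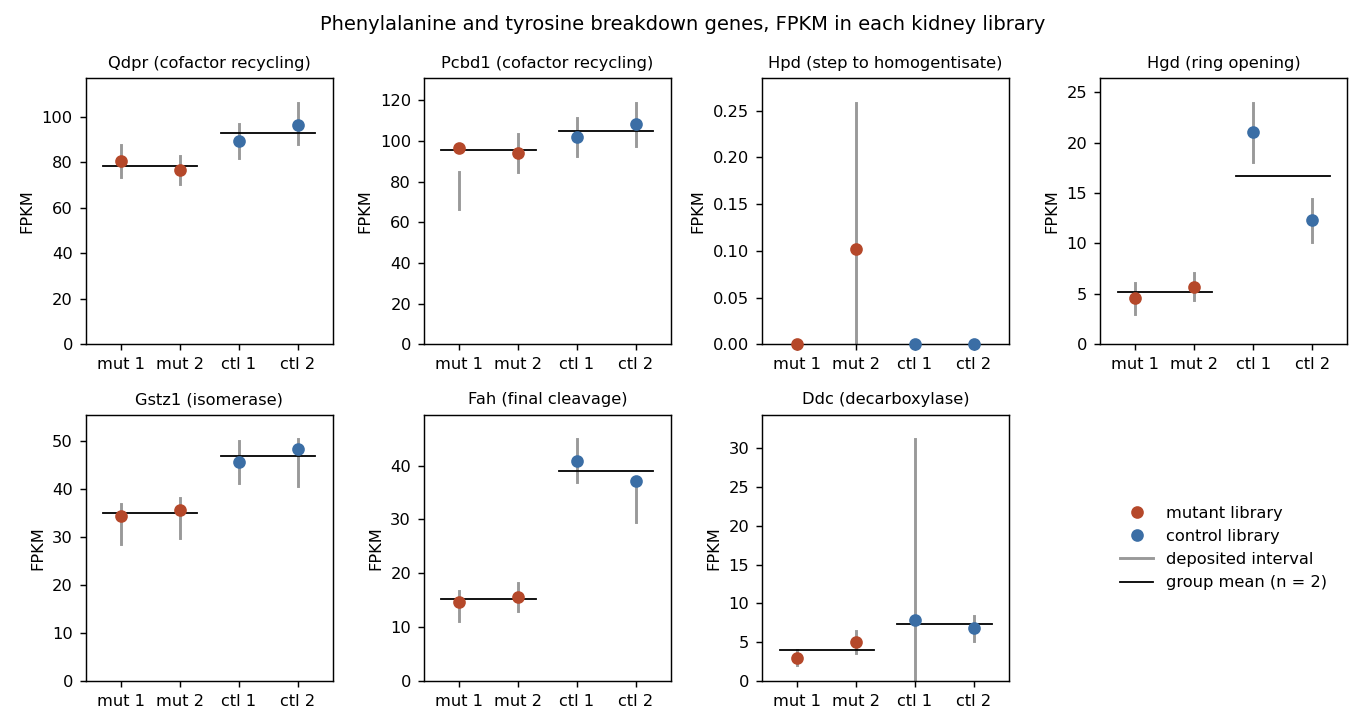
FPKM (linear axis from 0, a scale of its own for each gene) of the 7 genes in mutant libraries 1 and 2 and control libraries 1 and 2; points are libraries, grey bars the deposited intervals and black lines the means of 2 libraries (none for Hpd, which is listed at 0 in 3 libraries). Hgd, Gstz1 and Fah have intervals that do not meet between the groups, while those of Qdpr, Pcbd1 and Ddc do.

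The cofactor genes had the highest levels and the smallest differences. Qdpr encodes dihydropteridine reductase, which reduces the spent cofactor back to tetrahydrobiopterin (mm9 chromosome 5, 45825271 to 45841468). It was at 80.5 and 76.4 FPKM in the mutant libraries and at 89.5 and 96.4 FPKM in the control libraries. The log2 difference was -0.24 (SE 0.08), and its adjusted p was 0.60. The deposited interval of mutant replicate 1 ran up to 87.4 FPKM and that of control replicate 1 down to 82.0 FPKM, so the intervals of these libraries meet.

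Pcbd1 encodes pterin-carbinolamine dehydratase, which acts in the same cycle (mm9 chromosome 10, 60552079 to 60557077). Its level was 96.7 and 94.2 FPKM in the mutant libraries and 102 and 108 FPKM in the control libraries. This is the smallest difference of the 6, with a log2 value of -0.14 (SE 0.07) and an adjusted p of 0.76. In mutant replicate 1 the deposited interval, 66.6 to 84.8 FPKM, does not contain the deposited FPKM of 96.7. Such rows made up 4.76% of the table of that library, and none of the other 6 genes had such a row in any library.

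Hpd, which encodes hydroxyphenylpyruvate dioxygenase and makes homogentisate, was near the floor of detection. It was listed at 0 in mutant replicate 1, at 0.102 FPKM in mutant replicate 2 (interval 0 to 0.259) and at 0 in both control libraries (mm9 chromosome 5, 123621816 to 123632695). It was not tested, and no fold is given. Mutant replicate 2, the only library with a value above 0, was also the library with the highest summed level of the hepatocyte markers. These summed to 49.0 and 113.7 FPKM in the mutant libraries and to 70.1 and 66.4 FPKM in the control libraries. Among them Alb, serum albumin, named after its values were seen, was at 1.11 and 21.1 FPKM in the mutant libraries and at 0.295 and 1.09 FPKM in the control libraries. No hepatocyte marker was lower in mutant replicate 2 than in mutant replicate 1. Between the groups the markers did not move together. Ttr was lower in both mutant libraries, at 5.51 and 9.75 FPKM, against 14.7 and 10.9 FPKM in the control libraries. Of the 7 tested, 4 were higher and 2 lower without overlap, against 22.7% and 17.1% of all tested genes. The part of liver RNA in the Hpd value was not tested.

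Hgd and Fah had the largest differences of the tested genes. Hgd encodes homogentisate dioxygenase, which opens the aromatic ring and whose loss causes alkaptonuria in people (mm9 chromosome 16, 37580239 to 37632112). It was at 4.56 and 5.72 FPKM in the mutant libraries and at 21.1 and 12.3 FPKM in the control libraries. The groups do not overlap. In FPKM, the control libraries differed from each other by more than the distance from control replicate 2 to either mutant library. On the log2(FPKM + 1) scale they differed by less than either distance. The log2 difference was -1.49 (SE 0.29) with an adjusted p of 0.28, and it was -1.12 without control replicate 1 and -1.85 without control replicate 2. In mutant replicate 1 the assembled locus started earlier, at position 37579501, than in the other libraries.

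Fah encodes fumarylacetoacetase, the last step of the route, which yields fumarate and acetoacetate and whose loss causes tyrosinaemia with a renal tubular defect (mm9 chromosome 7, 91733670 to 91754452). It was at 14.7 and 15.5 FPKM in the mutant libraries and at 40.9 and 37.0 FPKM in the control libraries. The libraries of each group lay close together, at 15.1 ± 0.567 FPKM in mutant and 39.0 ± 2.70 FPKM in control libraries (SD, n = 2 each). The log2 difference was -1.31 (SE 0.10) with an adjusted p of 0.0514, just outside the threshold, and the gene passed in 5 of the 15 fits that were run, the reported one included. Over the alternatives its adjusted p lay between 0.0434 and 0.176. The log2 difference was -1.27 without mutant replicate 1 and -1.34 without mutant replicate 2.

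Gstz1, which encodes maleylacetoacetate isomerase, acts between Hgd and Fah and differed less than either (mm9 chromosome 12, 88488115 to 88505673, with the end at 88505787 in mutant replicate 1). It was at 34.4 and 35.7 FPKM in the mutant libraries and at 45.7 and 48.3 FPKM in the control libraries, with a log2 difference of -0.41 (SE 0.08) and an adjusted p of 0.25. Its deposited intervals reached at most 38.1 FPKM in the mutant libraries and at least 40.6 FPKM in the control libraries. The locus overlaps that of Pomt2, which GENCODE M21 places on the opposite strand, and the libraries are not described as stranded, so reads of the overlap cannot be assigned with certainty. Pomt2, an enzyme of protein mannosylation, was at 11.4 and 12.5 FPKM in the mutant libraries and at 12.5 and 12.2 FPKM in the control libraries.

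Ddc had the lowest level of the 6 tested genes and the widest spread within the mutant group in proportion to its level (mm9 chromosome 11, 11714104 to 11798147). It was at 3.01 and 5.01 FPKM in the mutant libraries and at 7.83 and 6.78 FPKM in the control libraries. The log2 difference was -0.76 (SE 0.25) with an adjusted p of 0.62, and it was -0.46 without mutant replicate 1 and -1.05 without mutant replicate 2. The interval of control replicate 1 ran from 0 to 31.2 FPKM, whereas that of control replicate 2 ran from 5.16 to 8.40 FPKM, so the value of control replicate 1 is poorly fixed. The locus overlaps 1700042O10Rik, which was at 0 in both mutant libraries and at 0 and 0.154 FPKM in the control libraries.

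Chromaffin cells and sympathetic neurons also express Ddc, and adrenal tissue could be brought along by dissection. Of 8 markers of these cells, 4 reached an FPKM of 1 in any library. The sum was 10.1 and 11.3 FPKM in the mutant libraries and 14.3 and 9.50 FPKM in the control libraries, led by Stmn2 and Slc18a1. Slc18a1, a vesicular monoamine transporter, was at 2.34 and 2.66 FPKM in the mutant libraries and at 8.52 and 3.52 FPKM in the control libraries, so its groups did not overlap, as for Ddc. Its log2 difference was -0.91 (SE 0.39), and limma gave an adjusted p of 0.75. The other markers did not follow Slc18a1. Of the 3 markers tested, 1, Slc18a1, had a negative log2 difference, and the median was 0.21. Stmn2 overlapped between the groups, with a log2 difference of 0.298 (SE 0.264). Chga, not tested, was higher in both mutant libraries, at 1.06 and 0.843 FPKM, against 0.081 and 0.478 FPKM in the control libraries. The part of these cells in the Ddc difference was not tested. Th, which makes DOPA from tyrosine, was at 0.264 and 0.152 FPKM in the mutant libraries and at 0.175 and 0 FPKM in the control libraries. Dbh, which turns dopamine into noradrenaline, was at 0 in both mutant libraries and at 0.0653 and 0 FPKM in the control libraries. Of 6 markers of the adrenal cortex, 5 were joined and only 1, Mc2r, reached an FPKM of 1 in any library. The joined markers summed to 1.71 and 1.94 FPKM in the mutant libraries and to 1.85 and 2.47 FPKM in the control libraries, led by Mc2r and Cyp11a1.

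Since the groups did not overlap for any of the 6 genes, the difference between same-numbered libraries is negative in both pairs by construction, and only its size is informative. On the log2(FPKM + 1) scale it was -1.41 between the replicates 1 and -1.20 between the replicates 2 for Fah, and -0.40 and -0.43 for Gstz1. For Hgd it was -1.99 and -0.98, and for Ddc -1.14 and -0.37, so these depended more on the pair. Qdpr had -0.15 and -0.33, and Pcbd1 -0.08 and -0.20.

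**Figure D2:**
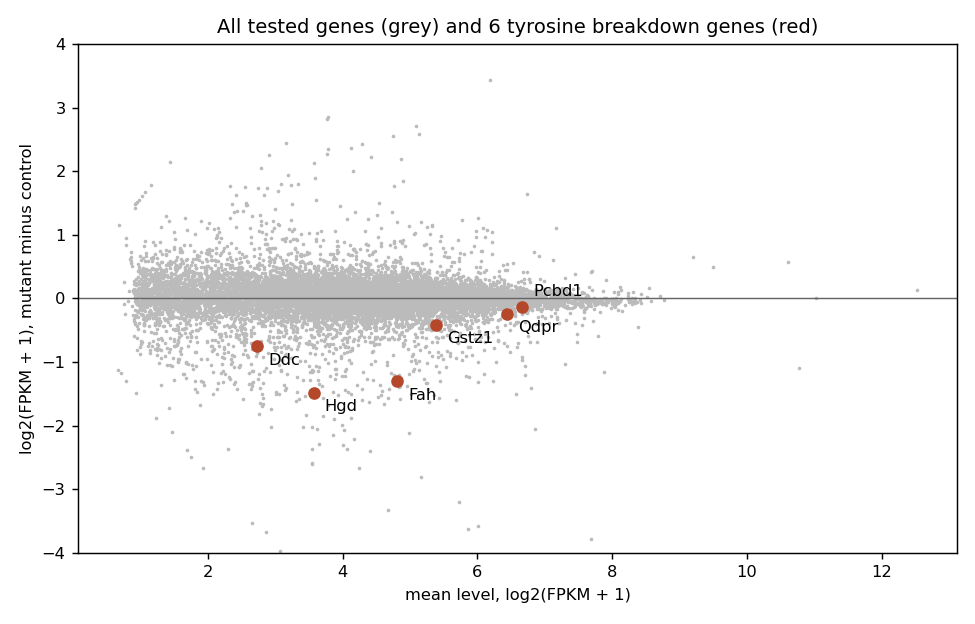
Difference in log2(FPKM + 1), mutant minus control, against the mean level, log2(FPKM + 1), of all tested genes (grey) and of 6 tyrosine breakdown genes (red); 10 genes lie beyond the axis limits of 4. Hgd at -1.49 and Fah at -1.31 lie at the lower edge of the grey cloud, and Pcbd1 and Qdpr at its right within the main band.

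The unequal differences also appear as ratios within a library, which do not depend on the scaling between libraries. For each unit of Qdpr, Fah stood at 0.183 and 0.203 in the mutant libraries and at 0.457 and 0.384 in the control libraries. The same ratio for Hgd was 0.0566 and 0.0749 in the mutant libraries, against 0.235 and 0.127 in the control libraries. Gstz1 per unit of Qdpr was 0.427 and 0.466 in the mutant libraries and 0.510 and 0.501 in the control libraries, a smaller distance. Pcbd1 per unit of Qdpr went the other way, with 1.20 and 1.23 in the mutant libraries and 1.14 and 1.12 in the control libraries. Between the neighbouring steps, Fah per unit of Gstz1 was 0.429 and 0.436 in the mutant libraries and 0.895 and 0.767 in the control libraries. Hgd per unit of Fah overlapped between the groups, with 0.309 and 0.368 in the mutant libraries and 0.515 and 0.331 in the control libraries.

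The proximal tubule markers differed by an amount similar to that of Fah, with a median log2 difference of -1.30 over the 9, beside -1.31 for Fah. The median of the 6 genes was smaller in size, at -0.58. Relative to the mean of the control libraries, Fah at 38.9% lay between the markers Slc27a2 at 38.7% and Slc34a1 at 39.9%. The 9 markers ranged from Cubn at 29.9% to Aqp1 at 63.8% and Hnf4a at 95.2%. Of the 9 markers, 8 were lower in both mutant libraries than in either control library, against 17.1% of all tested genes. Hnf4a overlapped between the groups. Hnf4a made up 34.5% and 30.8% of the summed markers in the mutant libraries and 17.0% and 18.9% in the control libraries, so each ratio was also taken to the sum without it, a choice made after seeing the data.

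Fah equalled 5.85% and 6.10% of the sum of 9 in the mutant libraries and 7.80% and 8.27% in the control libraries. Without Hnf4a in the sum it equalled 8.93% and 8.82% in the mutant libraries, close to the 9.41% and 10.2% in the control libraries. The groups of Fah lay closer to each other on the second scale, without overlap. Hgd equalled 1.81% and 2.25% of the sum of 9 in the mutant libraries and 4.02% and 2.74% in the control libraries. Without Hnf4a it was at 2.76% and 3.25% in the mutant libraries and at 4.84% and 3.38% in the control libraries, where mutant replicate 2 and control replicate 2 nearly met. Qdpr, Pcbd1 and Gstz1 were higher relative to the markers in the mutant libraries with either sum, although each was lower in FPKM there. The sum without Hnf4a was 165 and 176 FPKM in the mutant libraries and 435 and 363 FPKM in the control libraries. A gene that was lower by a smaller proportion than the sum therefore comes out higher on this scale. Without Hnf4a, Qdpr equalled 48.7% and 43.4% in the mutant libraries and 20.6% and 26.5% in the control libraries. Pcbd1 was at 58.6% and 53.4% in the mutant libraries and 23.5% and 29.8% in the control libraries on that scale. Gstz1 equalled 13.6% and 14.0% of the sum of 9 in the mutant libraries and 8.72% and 10.8% in the control libraries. Ddc overlapped with either sum, at 1.82% and 2.84% in the mutant libraries and 1.80% and 1.87% in the control libraries without Hnf4a. These ratios are descriptions with no test.

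**Figure D3:**
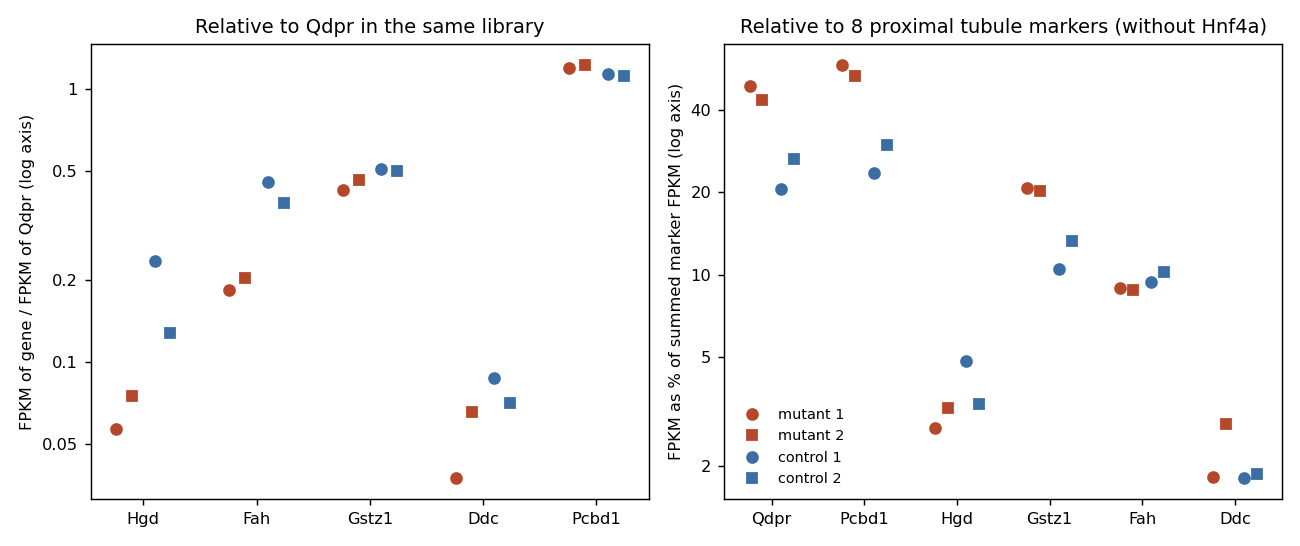
Left, FPKM of each gene divided by that of Qdpr in the same library; right, FPKM as a percentage of the summed FPKM of 8 proximal tubule markers, without Hnf4a; both axes are logarithmic, circles are replicates 1 and squares replicates 2, with mutant libraries in red and control libraries in blue. Hgd and Fah lie lower in the mutant libraries in the left panel. In the right panel the groups of Fah lie close (8.93% and 8.82% in the mutant libraries, 9.41% and 10.2% in the control libraries), both replicates 2 of Hgd nearly meet, and Qdpr, Pcbd1 and Gstz1 lie higher in the mutant libraries.

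Promoter sequences of the 2 genes with the largest differences are shown, with the letters searched in them. The windows are the 250 bases before the transcription start in RefSeq, build GRCm38.p6, which is not the build of the expression tables. Windows for all 7 genes were found, 2 each for Gstz1 and Ddc. Both strands were searched for CAAAGTCCA, the core of the motif bound by HNF4 proteins, with up to 1 mismatch, and for TATAAA with none. Capitals mark every match.
Hgd, chr16:37579903-37580152, plus strand: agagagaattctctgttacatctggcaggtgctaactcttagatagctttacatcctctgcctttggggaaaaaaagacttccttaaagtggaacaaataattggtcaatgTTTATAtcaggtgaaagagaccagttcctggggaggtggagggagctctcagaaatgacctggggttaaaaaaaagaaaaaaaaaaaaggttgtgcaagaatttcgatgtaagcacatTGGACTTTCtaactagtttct
Fah, chr7:84605943-84606192, minus strand: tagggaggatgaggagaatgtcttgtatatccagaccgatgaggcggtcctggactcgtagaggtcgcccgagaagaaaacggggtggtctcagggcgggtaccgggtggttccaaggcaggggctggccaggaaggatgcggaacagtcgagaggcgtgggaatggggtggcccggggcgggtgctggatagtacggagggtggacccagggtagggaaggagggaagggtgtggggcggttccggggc

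The Hgd window held the HNF4 core on the minus strand with 1 mismatch, from 21 to 13 bases before the start, where the match reads GAAAGTCCA, and a TATAAA from 139 to 134 bases before it. Among 32851 windows of the same length, 7.05% held the HNF4 core with up to 1 mismatch and 0.384% without mismatch. The Fah window held none of the letters searched and was rich in G and C, at 64.4% beside a median of 52.4% over all windows. The second Gstz1 window had the HNF4 core with 1 mismatch, TATAAA was found in the Pcbd1 window and in 1 Ddc window, and the windows of Qdpr and Hpd had no match. Each TATAAA match in the Hgd, Pcbd1 and Ddc windows lay on the strand opposite to the gene. On either strand, TATAAA occurred in 12.4% of all windows. A match is a description of letters, and no binding was measured.

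The wider pathway was described with a list of 50 genes, of which 47 were joined and 37 tested. Of these 37, 0 passed the adjusted threshold in either direction, 8 had an unadjusted limma p under 0.05 as lower and 0 as higher, against 4.57% and 2.67% of all tested genes. The groups did not overlap with the mutant libraries lower in 18 and higher in 4, against 17.1% and 22.7% of all tested genes. The median log2 difference was -0.13.

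Among enzymes at the entry of the route, 5 were tested and 3 had both mutant libraries below both control libraries, against 17.1% of all tested genes. The aspartate aminotransferases Got1 and Got2, which can also take the amino group from aromatic amino acids, differed little. Got1 was at 40.1 and 41.3 FPKM in the mutant libraries, against 42.3 and 46.8 FPKM in the control libraries, and Got2 at 102 and 100.3 FPKM in the mutant libraries, against 111 and 110.0 FPKM in the control libraries. Mif, a cytokine that also tautomerises phenylpyruvate, overlapped between groups at 271 and 232 FPKM in the mutant libraries and 270 and 279 FPKM in the control libraries. Tat, the tyrosine aminotransferase of the liver, was listed at 0 in all 4 libraries.

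Synthesis and recycling of tetrahydrobiopterin had 7 tested genes, with a median log2 difference of 0.03. Cbr1, a carbonyl reductase able to act on a precursor of the cofactor, was lowest relative to control, at 81.1 and 81.9 FPKM in the mutant libraries and 106 and 108 FPKM in the control libraries (log2 -0.39, SE 0.06, adjusted p = 0.20). Spr, sepiapterin reductase of the last step of synthesis, was at 64.1 and 61.6 FPKM in the mutant libraries and at 69.0 and 73.9 FPKM in the control libraries (adjusted p = 0.73). Pcbd2, the paralog of Pcbd1, overlapped between groups at 66.5 and 86.5 FPKM in the mutant libraries and 71.2 and 72.4 FPKM in the control libraries. Pts, the preceding synthase, was at 35.0 and 124.3 FPKM in the mutant libraries and at 26.9 and 28.5 FPKM in the control libraries, so most of its difference comes from mutant replicate 2. The end of the assembled Pts locus on mm9 chromosome 9 also varied, at 50336746 and 50336778 in the mutant libraries and at 50336798 and 50336746 in the control libraries.

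The next group held genes that act on fumarate and acetoacetate, the end products, or downstream of them, together with relatives of Fah. Its differences were small, none past the threshold. Fh1, fumarate hydratase, was at 84.0 and 83.4 FPKM in the mutant libraries and at 78.4 and 89.6 FPKM in the control libraries. Oxct1, which activates acetoacetate for oxidation, was at 88.1 and 84.9 FPKM in the mutant libraries and at 86.0 and 95.3 FPKM in the control libraries. Acat1, the mitochondrial thiolase that follows it, was at 51.0 and 51.9 FPKM in the mutant libraries and at 78.8 and 54.1 FPKM in the control libraries, a difference that comes mostly from control replicate 1. Fahd1, a hydrolase of the same protein superfamily as Fah, was at 33.8 and 33.9 FPKM in the mutant libraries and at 37.0 and 44.4 FPKM in the control libraries (log2 -0.25, SE 0.11, adjusted p = 0.76). All 8 tested genes of this group had negative log2 differences, against 44.7% of all tested genes, with a median of -0.12.

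On the amine branch beside Ddc, 7 genes were tested, with a median log2 difference of 0.20. Hdc, which makes histamine from histidine, was at 64.6 and 56.1 FPKM in the mutant libraries and at 103 and 73.3 FPKM in the control libraries (log2 -0.52, SE 0.19, adjusted p = 0.67). The aldehyde dehydrogenases Aldh2 and Aldh3a2 overlapped between groups, with log2 differences of -0.06 (SE 0.08) and 0.20 (SE 0.14). The dopamine receptors Drd2 and Drd5 were listed at 0 in all libraries, and Drd1a did not exceed 0.281 FPKM.

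Carriers that bring aromatic and other neutral amino acids into or out of the cell were tested in 8 genes. All had negative log2 differences, with a median of -0.33, and 6 of the 8 had both mutant libraries below both control libraries, against 44.7% and 17.1% of all tested genes. Slc3a1, the heavy subunit of a cystine carrier that also takes neutral amino acids, was at 15.8 and 25.0 FPKM in the mutant libraries and at 44.5 and 44.4 FPKM in the control libraries (log2 -1.12, SE 0.23, adjusted p = 0.30). The same gene is counted among the proximal tubule markers, so the 2 lists are not separate. Slc7a8, a basolateral exchanger of neutral amino acids, was at 15.9 and 12.7 FPKM in the mutant libraries and at 22.9 and 17.2 FPKM in the control libraries. Its heavy subunit Slc3a2 was at 44.8 and 43.5 FPKM in the mutant libraries and at 51.0 and 51.3 FPKM in the control libraries. Tmem27, which pairs with the neutral amino acid carrier Slc6a19, was at 61.4 and 68.1 FPKM in the mutant libraries and at 75.2 and 71.5 FPKM in the control libraries.

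**Figure D4:**
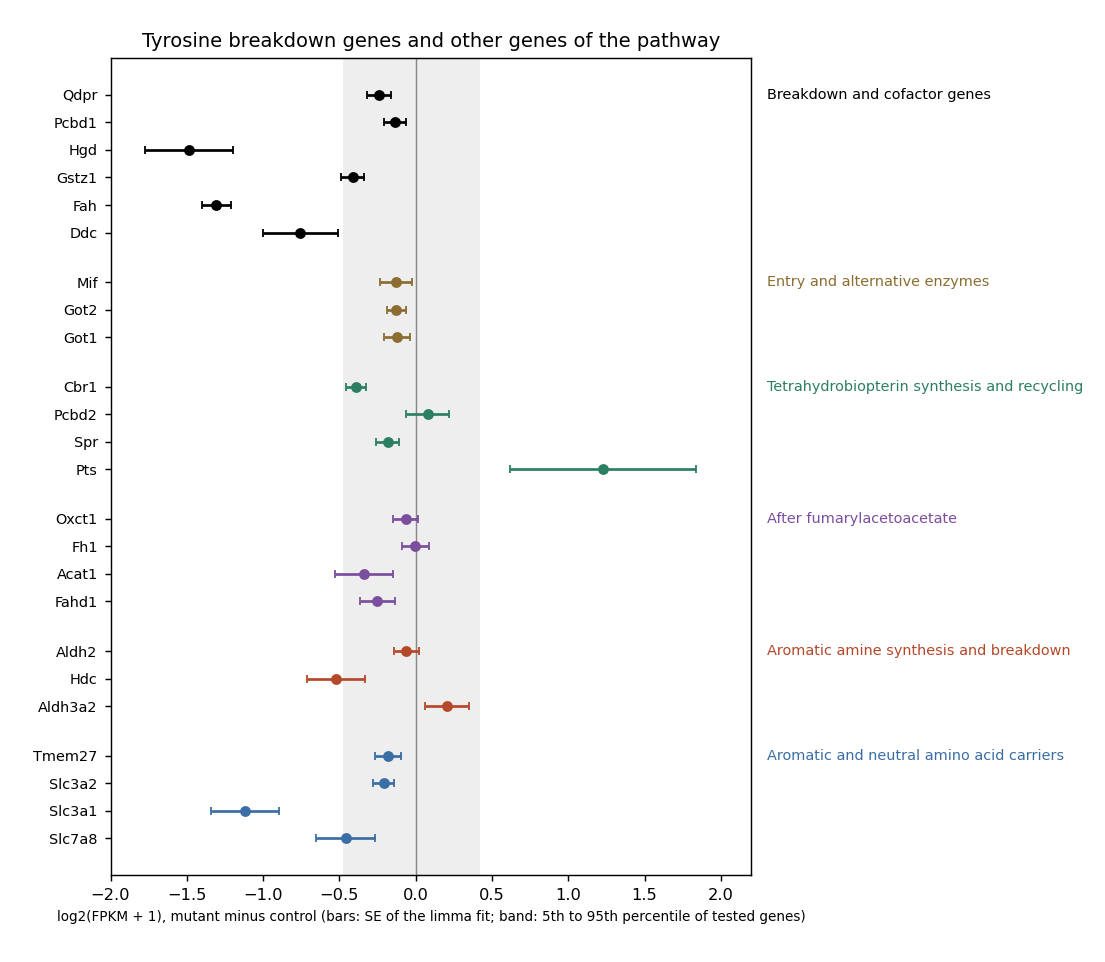
Difference in log2(FPKM + 1), mutant minus control, with the SE of the limma fit, for the 6 tested genes and for named genes of the wider pathway by group; the grey band spans the 5th to 95th percentile of all tested genes, -0.47 to 0.42. Hgd, Fah and Ddc, with Slc3a1 and Hdc, lie left of the band, and Pts, which has the widest error, lies right of it.

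The genes closest in pattern to the mean of the 6 over the 4 libraries were found by the root mean square distance of centred log2(FPKM + 1) values, among 8720 other genes with a mean of at least 10 FPKM. They were Slc6a18 at a distance of 0.0284, Rab11fip3 at 0.0348, Pls1 at 0.0351, Ass1 at 0.0484 and Pde8b at 0.0496. Slc6a18, a carrier of neutral amino acids in the kidney, was at 22.7 and 25.5 FPKM in the mutant libraries and at 42.0 and 40.2 FPKM in the control libraries. Ass1, an enzyme of arginine synthesis, was at 63.2 and 63.8 FPKM in the mutant libraries and at 111 and 103 FPKM in the control libraries. With 4 libraries in 2 groups, such a distance mostly reflects the size of the difference between groups.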

How the data were processed

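Per the labels' protocols, kidney RNA of mouse embryos was poly(A) selected and a DNA library kit was used. The FPKM values and the bounds of their intervals were computed by the authors, 1 table per library. Per the submitters' processing notes Cufflinks 2.1.1, TopHat2 2.0.11, SAMtools 0.1.19 and Bowtie 1.0.0 were used with mm9; annotation and settings are not given in the sources. Gene numbers in the tables differ by library, so loci were assembled separately.

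Rows were joined by gene symbol. Of 23852 symbols, 22761 were in all 4 tables, 99 with a row not marked OK were left out, and rows with a shared symbol were summed. The test was limma 3.58.1 (R 4.3.3) on log2(FPKM + 1) of genes that reached an FPKM of 1 in 2 or more libraries, with group alone in the model and a mean-variance trend. P-values were adjusted by Benjamini-Hochberg over all tested genes, with a threshold of 0.05. The fit was run on simulated libraries with independent normal noise, which does not check its assumptions for these libraries. Log2 differences understate those of low genes. Animals are not named in the labels, and p-values therefore rest on the spread between libraries, which may be technical.

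The 7 genes, the pathway list and the markers were chosen with earlier results of these data known. Named list genes are those past the threshold, or else up to 4 per group with the highest mean FPKM; some genes that this rule names are counted in their lists but not reported here. Genes alike in pattern exclude unnamed models, microRNAs and small nucleolar RNAs. The 15 alternatives changed the pseudocount, filter, scaling, variance model, row handling, threshold, replicate block and each library in turn; where a group kept 1 library, that library was assumed to vary like those of the other group. Promoters come from RefSeq, build GRCm38.p6.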

Additional observations from a re-analysis of the deposited data

How the results depend on the processing

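For the 6 tested genes, every log2 difference stayed negative under the 14 alternative fits, and none of Qdpr, Pcbd1, Hgd, Gstz1 and Ddc passed the threshold in any. The count of the 6 that passed as lower was 0 as reported and 1, Fah, with a pseudocount of 0.1, a mean FPKM of at least 5, median scaling, the highest row in place of the sum, rows not marked OK kept, and a threshold of 0.1; 0 passed when any library was left out, and 0 passed as higher in any fit. Their median difference, -0.58, was -0.66 with a pseudocount of 0.1, -0.62 with 0.5, and between -0.74 and -0.43 with a library left out. Over all genes, 15 were lower and 6 higher as reported. Lower genes numbered 6 without a filter, 23 with median scaling, 7 without the mean-variance trend and 66 at a threshold of 0.1, and higher genes 13 at that threshold. With a library left out, lower genes ranged from 0 to 17 and higher genes from 0 to 4. Both counts were 0 without control replicate 1 and without control replicate 2. The cause of these shifts was not tested, except that a looser threshold admits more genes. With the replicate block, 3 genes were lower and 3 higher and the adjusted p of Fah was 0.15. The deviations of same-numbered libraries correlated at 0.146 across genes, and at 0.115 without sex-linked marker genes. The labels do not say that the 2 pairs share anything, but each pair shares its pattern of Xist and Y-linked transcripts. Absolute depth is unknown, which limits what can be said of Hpd.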
